A study of Mus musculus with 18 samples.

Results

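The 39 genes described here encode proteins of G2 phase and mitosis, the stages in which a cell checks its copied genome, condenses its chromosomes and divides. They were listed by name as known genes of these stages, not by a threshold on their levels, though with earlier results of these data known. All 39 were found by symbol among the 55536 genes of the count table. All 39 passed a filter on low counts that kept 17092 genes for testing. RNA was counted in 18 libraries of mouse mammary organoids, which are cultures of mammary epithelial cells grown as small bodies in a gel. KO organoids came from RasGRP1-/- glands, which lack a factor that loads Ras with GTP, and WT organoids from wild-type glands. Both came from C57BL/6 mice of 6 to 7 weeks. ERW medium held EGF at 2.5 nM, NGS-Wnt (a surrogate Wnt ligand) at 0.1 nM and Rspo2 (R-spondin 2, which raises the response of cells to Wnt) at 8.3 nM. EGF medium held the EGF alone, and RW medium held NGS-Wnt and Rspo2 without EGF, each at the same dose. All cultures shared matrigel and DMEM/F12 with insulin, transferrin and selenium, and were treated for 5 days, so that no group was without any added factor. Each of the 6 groups had 3 biological replicates, and the labels number them as batches 1, 2 and 3, with 1 library of every group in each batch. The labels name no cell type to which the loss of RasGRP1 was restricted, and how many mice gave a culture is not given in the sources used here.

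Entry into mitosis is driven by the kinase Cdk1 bound to cyclin B or cyclin A, which is switched on together with Plk1 and the Aurora kinases. Chromosomes then attach to spindle fibres through kinetochores, a checkpoint holds back division until all are attached, and the anaphase-promoting complex, with Cdc20, marks cyclin B for destruction. Most of these genes are silent in resting cells and are transcribed together late in the cycle, through complexes that bind CHR elements and CCAAT boxes in their promoters and through the factor Foxm1. In mammary epithelium, ligands of the EGF receptor and Wnt with R-spondin are both known to promote growth. The counts come from whole cultures, so a smaller share of cycling cells and less RNA per cycling cell cannot be told apart.

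The libraries held 24290097 to 31269899 counts, and the 39 genes together took 0.138% to 0.323% of them. Rasgrp1 itself was low in both genotypes, with 25 counts in all over 9 KO libraries (0 to 9 per library) and 145 over 9 WT libraries (6 to 28). All 6 epithelial markers (Epcam, Cdh1, Krt8, Krt18, Krt5 and Krt14) were present in every library, with summed levels of 6386 to 9237 CPM (counts scaled to library size) in ERW, 5247 to 8354 CPM in EGF and 7504 to 10527 CPM in RW medium. All 6 fibroblast, 6 endothelial, 6 adipocyte and 6 myeloid markers also passed the filter on low counts, against 1 of 6 lymphocyte markers. The summed endothelial markers ranged from 73.1 to 191 CPM in ERW, 255 to 410.0 CPM in EGF and 237 to 559 CPM in RW medium, and the adipocyte markers from 40.1 to 270.4, 190.8 to 752 and 221 to 1131 CPM in the same order of media. The summed fibroblast markers ranged from 355 to 1045 CPM in ERW, 654 to 2595 CPM in EGF and 581 to 2181 CPM in RW medium, and the myeloid markers from 8.52 to 26.9, 17.7 to 147.5 and 24.4 to 68.4 CPM. The part of these cells in the results below was not tested.

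Promoter sequence was at hand from RefSeq for 32 of the 39 genes, as windows from 250 bases before to 50 after the start of transcription on GRCm38.p6. The CHR element, searched as TTTGAA on both strands, was present in 25 of the 32 (78.1%), against 20.2% of the 27025 genes with a window of that length. The CCAAT box, searched as CCAAT on both strands, was present in 26 of the 32 (81.2%), against 41.1% of all genes. Both motifs stood in 1 window of 22 members, against 7.97% of all genes. In these letters the 2 motifs can share at most 1 base. The 7 windows without TTTGAA were those of Birc5, Bub1, Ccnb1, Cenpe, Cks2, Mad2l1 and Nuf2, and the 6 without CCAAT those of Anln, Birc5, Kif2c, Mad2l1, Ndc80 and Nuf2, so that the windows of Birc5, Mad2l1 and Nuf2 held neither. The 200 bases from 170 before to 30 after the start are shown for 7 genes on which the results turn, in lower case on the strand of the gene, with both motifs and their reverse complements in capitals. They include Cdk1, whose window holds both motifs, Ccnb1 and Cks2, which hold CCAAT boxes without TTTGAA, and the genes with the largest changes between media, Cdc20 and Hmgb2.
Cdk1 (chr10:69352883-69353082, minus strand): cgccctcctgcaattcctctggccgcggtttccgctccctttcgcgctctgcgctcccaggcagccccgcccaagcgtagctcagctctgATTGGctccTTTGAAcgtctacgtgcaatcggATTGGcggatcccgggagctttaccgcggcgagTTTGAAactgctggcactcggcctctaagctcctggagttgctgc
Ccnb1 (chr13:100786457-100786656, minus strand): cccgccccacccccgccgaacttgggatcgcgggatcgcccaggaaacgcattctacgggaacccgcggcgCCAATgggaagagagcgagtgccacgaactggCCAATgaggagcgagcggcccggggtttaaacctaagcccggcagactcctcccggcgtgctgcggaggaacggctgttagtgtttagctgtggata
Cks2 (chr13:51645062-51645261, plus strand): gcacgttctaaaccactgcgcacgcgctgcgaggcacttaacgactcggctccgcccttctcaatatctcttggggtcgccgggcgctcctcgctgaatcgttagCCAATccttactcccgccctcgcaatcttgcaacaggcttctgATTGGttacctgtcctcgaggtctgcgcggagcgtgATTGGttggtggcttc
Plk1 (chr7:122159265-122159464, plus strand): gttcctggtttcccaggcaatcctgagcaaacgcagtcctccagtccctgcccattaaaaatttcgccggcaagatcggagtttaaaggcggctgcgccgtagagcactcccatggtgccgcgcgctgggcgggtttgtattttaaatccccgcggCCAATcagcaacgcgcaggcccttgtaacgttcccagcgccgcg
Cdc20 (chr4:118437314-118437513, minus strand): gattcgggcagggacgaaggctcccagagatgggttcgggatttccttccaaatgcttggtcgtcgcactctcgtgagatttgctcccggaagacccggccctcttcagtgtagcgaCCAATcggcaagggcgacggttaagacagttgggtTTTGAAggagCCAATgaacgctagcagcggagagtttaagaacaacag
Mki67 (chr7:135716350-135716549, minus strand): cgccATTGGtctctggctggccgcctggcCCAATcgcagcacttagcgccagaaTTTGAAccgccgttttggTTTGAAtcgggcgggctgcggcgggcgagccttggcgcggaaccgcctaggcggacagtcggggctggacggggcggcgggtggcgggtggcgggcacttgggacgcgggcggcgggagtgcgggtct
Hmgb2 (chr8:57511673-57511872, plus strand): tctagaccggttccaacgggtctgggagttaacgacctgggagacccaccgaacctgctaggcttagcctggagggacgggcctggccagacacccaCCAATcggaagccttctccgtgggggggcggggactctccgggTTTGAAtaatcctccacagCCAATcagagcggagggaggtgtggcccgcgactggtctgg
In Cdc20 and Hmgb2, TTTGAA lay 18 and 30 bases before the start, each with a CCAAT box within the printed bases on both sides of it. Mki67 had TTTGAA at 116 and at 98 bases before the start, downstream of its CCAAT boxes. In Plk1 the motif lay at base 31 after the start, just outside the printed bases. A match of letters is a description of the window and does not show that a factor binds there.

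Levels between genes were compared per kilobase of exon, as the mean over the 18 libraries. The length was that of all annotated exons of a gene merged, not of the transcripts expressed here, so the order also depends on annotation. Cdc20 was highest at 34.9 ± 13.2 CPM per kb (SD, n = 18), before Mki67 at 30.7 ± 8.52, Ccnb2, Plk1 and Ccna2. The means of these other genes lay within the SD of Cdc20, which is a spread between libraries. It does not show whether genes differ, and differences between genes were not tested. Ccnb1 was lowest at 1.85 CPM per kb, and Ttk, a kinase of the spindle checkpoint, was next at 2.38. Ccnb1, Ccnb2 and Kif4 have annotated pseudogenes, with which reads can be shared. Exons of 8 members share bases with another coding gene, 7 of them on the opposite strand, from 29.3% of the exon bases of Kif20a (shared with Cdc23) and 22.8% of those of Ube2c (with Tnnc2) to 2.50% of those of Foxm1, the 1 case on the same strand (with Tex52). The strand setting of the counting is not given in the sources used here, so the values of those 8 genes may include reads of the partner.

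The genes moved together with the medium. Their geometric mean was 45.8 ± 12.1 CPM in KO ERW organoids, 31.3 ± 5.80 CPM in KO EGF and 41.2 ± 11.99 CPM in KO RW (SD, n = 3 each). In WT organoids it was 50.1 ± 14.1 CPM in ERW, 32.0 ± 1.93 CPM in EGF and 45.5 ± 10.3 CPM in RW. EGF medium thus gave the lowest mean in both genotypes, and the spread between replicates was wide in ERW and RW. In WT, the 3 EGF libraries stood between 30.2 and 34.0 CPM and did not reach the lowest ERW library at 34.4 CPM, while 1 of them, at 34.0 CPM, lay above the lowest RW library at 33.7 CPM. In KO, the EGF libraries stood between 25.5 and 37.1 CPM and overlapped those in ERW (32.9 to 56.9 CPM) and in RW (32.3 to 54.9 CPM).

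**Figure D1:**
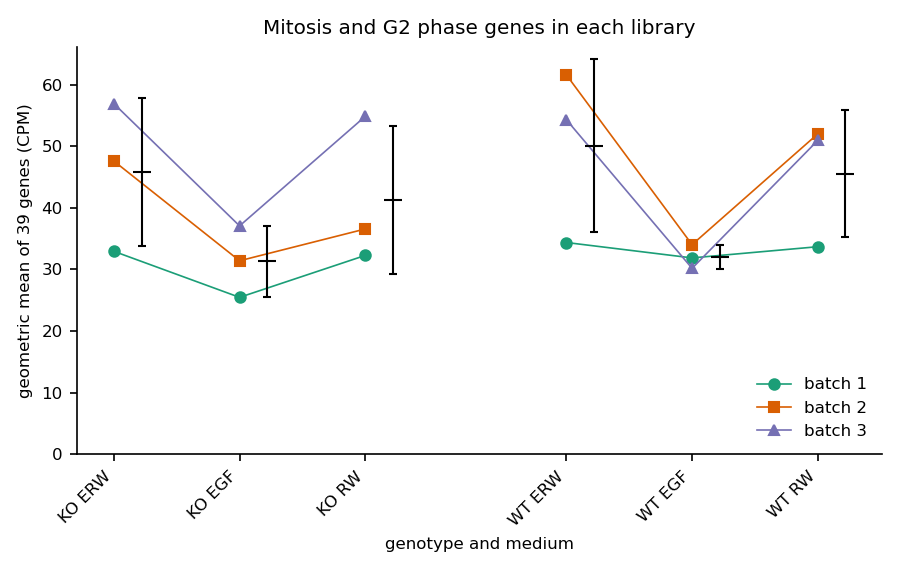
Geometric mean of the 39 genes in each of the 18 libraries (y axis, CPM) by genotype and medium, with symbols and lines joining the libraries of a batch and black bars giving the mean ± SD of 3 libraries. The lines of batches 2 and 3 dip at EGF medium in both genotypes, to 30.2 to 37.1 CPM. In batch 1 the KO line also dips there, to 25.5 CPM, whereas the WT line runs from 31.9 to 34.4 CPM over the 3 media.

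In ERW against EGF medium, which asks what Wnt and R-spondin add to EGF, 37 of the 39 genes were higher over both genotypes and none was lower. Adjusted p-values here and below are from the quasi-likelihood test of edgeR with the batch as a block, over all 17092 genes within a comparison, and a gene was called below 0.05. The median log2 fold change was 0.57, a 1.49-fold difference, from 0.15 in Anln to 0.83 in Cdc20. Of all genes tested, 13.4% were higher in this comparison, and the median over all genes was 0.01. The 2 genes without a call were Anln, an organiser of the contractile ring, and Aurka, a kinase of the spindle poles. Without the block, 15 were called. Leaving out any 1 library left 31 to 39 calls, while 23 were left without batch 2 and 20 without batch 3.

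In EGF against RW medium, which sets the 2 kinds of factor against each other, 29 of the 39 genes were lower and none was higher. The median log2 fold change was -0.42, and the values ran from -0.69 in Hmgb2 to -0.16 in Cdk1. Of all genes, 12.5% were lower in EGF medium, and the median over all genes was -0.01. The 10 genes without a call were Cdk1, Ccnb1, Plk1, Aurka, Bub1, Mad2l1, Nuf2, Kif2c, Kif23 and Anln, and the fitted value of each was below 0. Without the block 5 were called, and without batch 3 there were 2. Leaving out any 1 library left 20 to 35.

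In ERW against RW medium, which asks what EGF adds to Wnt and R-spondin, 1 of 39 genes was called, against 11.0% of all genes that were higher. It was Cdk1, at 61.1 ± 17.1 CPM in ERW and 49.4 ± 14.5 CPM in RW medium (SD, n = 6 each), with a log2 fold change of 0.31 ± 0.10 (SE, adjusted p = 0.0283). Cdk1 was higher in ERW than in RW medium in all 3 batches of both genotypes, though the groups overlapped. The call was lost without the block (adjusted p = 0.489), without batch 2 or batch 3 (0.173 and 0.0681), and without any of 7 single libraries (0.0514 to 0.0894), namely KO ERW replicate 3, KO RW replicates 1 and 2, WT ERW replicates 2 and 3 and WT RW replicates 1 and 3. Without KO RW replicate 3, 2 genes were called. The median over the 39 was 0.13, with 34 values above 0 and 5 below (Mki67, Prc1, Ndc80, Anln and Spc25), and 2 genes had an unadjusted p under 0.05. In WT no gene was called in this comparison, against 4.92% of all genes called higher (median 0.15). At an unadjusted p under 0.05 there was 1 of the 39 in WT, against 3841 of all 17092 genes in either direction. In KO none was called, against 6.10% of all genes called higher (median 0.13), and 2 had such an unadjusted p. In KO, 2 were called without RW replicate 3, and in WT 2 with the fit on only the groups compared. These medians rested on single libraries: the WT median was -0.03, with 24 of 39 values below 0, without ERW replicate 2, and the KO median was 0.01 without RW replicate 2 and 0.29 without RW replicate 3. Over both genotypes the median was 0.04 without batch 2 and 0.21 without KO RW replicate 3.

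**Figure D2:**
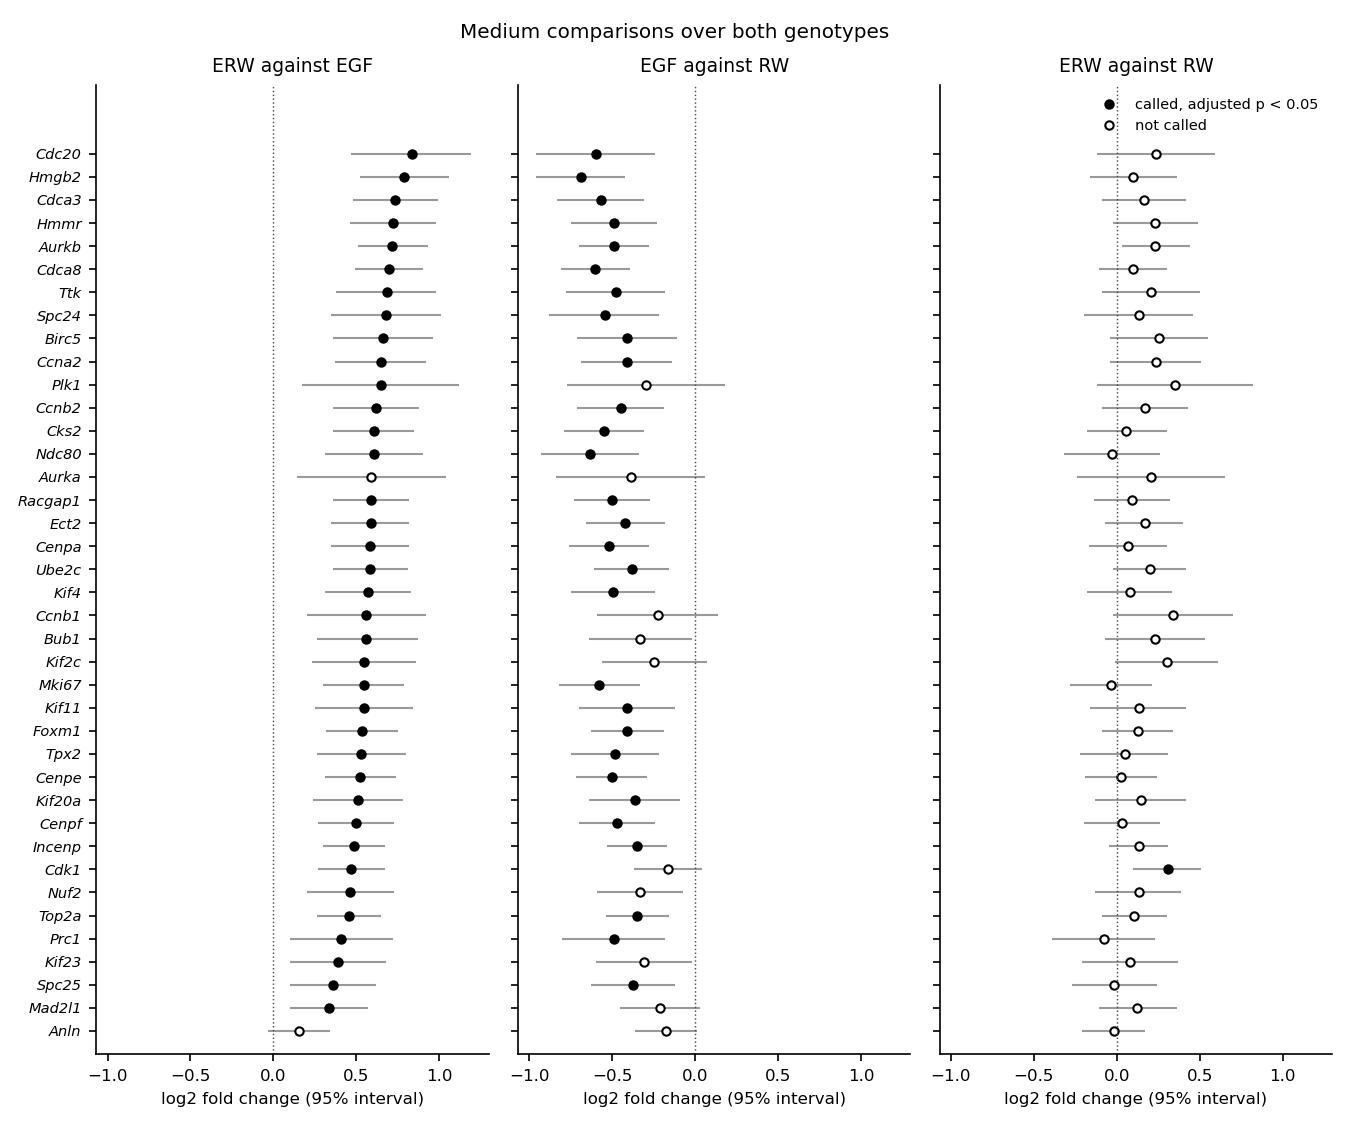
Log2 fold change of each of the 39 genes (rows) in 3 comparisons of media over both genotypes, with the 95% interval as a line, and filled points for an adjusted p under 0.05. In ERW against EGF 37 points are filled to the right of 0, in EGF against RW 29 to the left of 0, and in ERW against RW Cdk1 alone is filled.

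Within each genotype fewer genes passed the test. In KO, 18 of 39 were higher in ERW than in EGF medium (median 0.52, 5.17% of all genes called higher), and 6 were lower in EGF than in RW medium (median -0.41, 5.94% of all genes called lower), namely Cdca8, Cenpa, Cenpe, Cks2, Hmgb2 and Mki67. In WT, 26 were higher in ERW than in EGF (median 0.58, against 6.85% of all genes) and 17 lower in EGF than in RW (median -0.46, against 6.92%). The libraries of 5 genes in KO and 16 in WT did not overlap between ERW and EGF, with ERW higher, against 6.65% and 10.5% of all genes. Those of 4 genes in KO and 16 in WT did not overlap between EGF and RW, with EGF lower, against 7.71% and 10.9% of all genes. Over both genotypes, with 6 libraries a medium, the ERW and EGF libraries did not overlap for 1 gene, Ttk, with ERW higher, against 2.48% of all genes. The EGF and RW libraries did not overlap for 1 gene, Cenpa, with EGF lower, against 3.46%. Neither count of 1 among 39 stands out from these shares.

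The counts within a genotype depended on single libraries. In KO, the 18 calls of ERW against EGF became 7, 2 and 5 without EGF replicate 1, 2 and 3, and 10, 9 and 1 without ERW replicate 1, 2 and 3. They were 11, 5 and 1 without batch 1, 2 and 3. The 6 KO calls of EGF against RW became 3, 1 and 3 without EGF replicate 1, 2 and 3, 1, 15 and 0 without RW replicate 1, 2 and 3, 12 and 11 without WT EGF replicate 1 and 3, and 1 and 0 without batch 1 and batch 3. In WT, the 26 calls of ERW against EGF became 9 and 3 without EGF replicate 2 and 3, 5 and 16 without ERW replicate 2 and 3, and 4 and 2 without batch 2 and batch 3. The 17 WT calls of EGF against RW became 30, 3 and 2 without EGF replicate 1, 2 and 3, 11, 3 and 6 without RW replicate 1, 2 and 3, 11 without ERW replicate 3, and 3 and 0 without batch 2 and batch 3. Without the block, none of these 4 counts was above 0. With the fit on only the groups compared, KO had 32 calls in ERW against EGF and 17 in EGF against RW. In the authors' deposited table, 26 and 14 of the 39 genes passed in KO and 31 and 23 in WT at an adjusted p under 0.05 in ERW against EGF and in EGF against RW. In that table, the authors' deposited table, 16.2% and 18% of all genes with an adjusted p passed in KO and 20.5% and 20% in WT, in either direction. None of the 39 passed there in ERW against RW in either genotype, against 15.6% of all genes in KO and 13.7% in WT.

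Of the 7 genes of cyclin-CDK complexes and entry kinases, 6 were higher in ERW than in EGF medium and 3, Cks2, Ccnb2 and Ccna2, were lower in EGF than in RW. Cdk1 is the kinase that starts mitosis, and here as below the 3 values of a group are those of batches 1, 2 and 3. Cdk1 had 37.9, 62.2 and 76.3 CPM in KO ERW organoids, 33.4, 46.3 and 49.7 CPM in KO EGF organoids and 29.1, 48.2 and 64.9 CPM in KO RW organoids. In WT, the Cdk1 values were 42.0, 74.0 and 73.9 CPM in ERW, 38.8, 44.7 and 43.4 CPM in EGF and 35.4, 60.8 and 58.2 CPM in RW medium. The EGF and RW values of Cdk1 overlapped in both genotypes, and in replicate 1 of each the EGF library was the higher of the pair. The log2 fold change of Cdk1 was 0.47 ± 0.10 (SE) for ERW against EGF (adjusted p = 0.00157) and -0.16 ± 0.10 for EGF against RW (adjusted p = 0.252). Ccnb1, cyclin B1, is the partner that Cdk1 needs at entry. Ccnb1 had 6.51, 10.4 and 11.97 CPM in KO ERW organoids, 6.18, 5.62 and 8.90 CPM in KO EGF organoids and 4.25, 6.92 and 9.65 CPM in KO RW organoids. In WT, the Ccnb1 values were 5.91, 10.8 and 11.6 CPM in ERW, 6.12, 5.44 and 5.14 CPM in EGF and 5.18, 9.60 and 10.1 CPM in RW medium. In batch 1 Ccnb1 was lowest in RW medium in both genotypes, while in batches 2 and 3 it was lowest in EGF. On the log2 scale the fitted difference of Ccnb1 was 0.56 ± 0.17 (SE) between ERW and EGF medium (adjusted p = 0.0210) and -0.22 ± 0.17 between EGF and RW medium (adjusted p = 0.402). Cks2, a small subunit of Cdk complexes, gave the smallest adjusted p of this group in both comparisons. Cks2 had 11.2, 15.4 and 15.4 CPM in KO ERW organoids, 7.79, 8.15 and 11.8 CPM in KO EGF organoids and 10.1, 12.8 and 17.1 CPM in KO RW organoids. In WT, the Cks2 values were 11.0, 16.7 and 14.7 CPM in ERW, 8.46, 9.51 and 9.20 CPM in EGF and 10.2, 16.3 and 14.97 CPM in RW medium. In WT every EGF value of Cks2 was below every ERW and RW value, whereas in KO the groups overlapped. For ERW against EGF, Cks2 had a log2 fold change of 0.61 ± 0.12 (SE, adjusted p = 0.000784), and for EGF against RW one of -0.55 ± 0.12 (adjusted p = 0.00156). Of the other cyclins, Ccnb2 averaged 51.7 ± 13.9 CPM in ERW, 32.8 ± 5.66 CPM in EGF and 46.3 ± 15.5 CPM in RW medium, with log2 fold changes of 0.62 ± 0.12 for ERW against EGF (adjusted p = 0.00143) and -0.45 ± 0.12 for EGF against RW (adjusted p = 0.0127). Ccna2 averaged 115 ± 31.3 CPM in ERW, 71.6 ± 11.7 CPM in EGF and 98.2 ± 29.1 CPM in RW medium; this cyclin A gene changed by 0.65 ± 0.13 for ERW against EGF (adjusted p = 0.00209) and -0.41 ± 0.13 for EGF against RW (adjusted p = 0.0301).

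Plk1 and Aurka, kinases of spindle poles and mitotic entry, had the largest standard errors of the group. Plk1 had 43.0, 54.5 and 80.5 CPM in KO ERW organoids, 30.8, 35.8 and 47.0 CPM in KO EGF organoids and 40.7, 29.0 and 60.3 CPM in KO RW organoids. In WT, the Plk1 values were 43.4, 92.1 and 74.1 CPM in ERW, 49.6, 42.7 and 34.3 CPM in EGF and 41.8, 73.4 and 57.3 CPM in RW medium. In WT replicate 1 there was more Plk1 in EGF than in ERW or RW medium, and in KO replicate 2 more in EGF than in RW medium. Plk1 thus gave fitted log2 fold changes of 0.65 ± 0.22 (SE) for ERW against EGF (adjusted p = 0.0439) and -0.30 ± 0.22 for EGF against RW (adjusted p = 0.376). Aurka had 16.2, 25.5 and 33.4 CPM in KO ERW organoids, 13.3, 17.7 and 17.0 CPM in KO EGF organoids and 18.7, 15.4 and 28.9 CPM in KO RW organoids. In WT, the Aurka values were 18.01, 44.2 and 30.2 CPM in ERW, 20.2, 25.2 and 14.7 CPM in EGF and 23.5, 32.6 and 22.04 CPM in RW medium. WT replicate 2 in ERW medium was the highest Aurka value of all libraries, and the media overlapped in both genotypes. The log2 fold change of Aurka was 0.59 ± 0.21 (SE) for ERW against EGF (adjusted p = 0.0504) and -0.39 ± 0.21 for EGF against RW (adjusted p = 0.211).

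**Figure D3:**
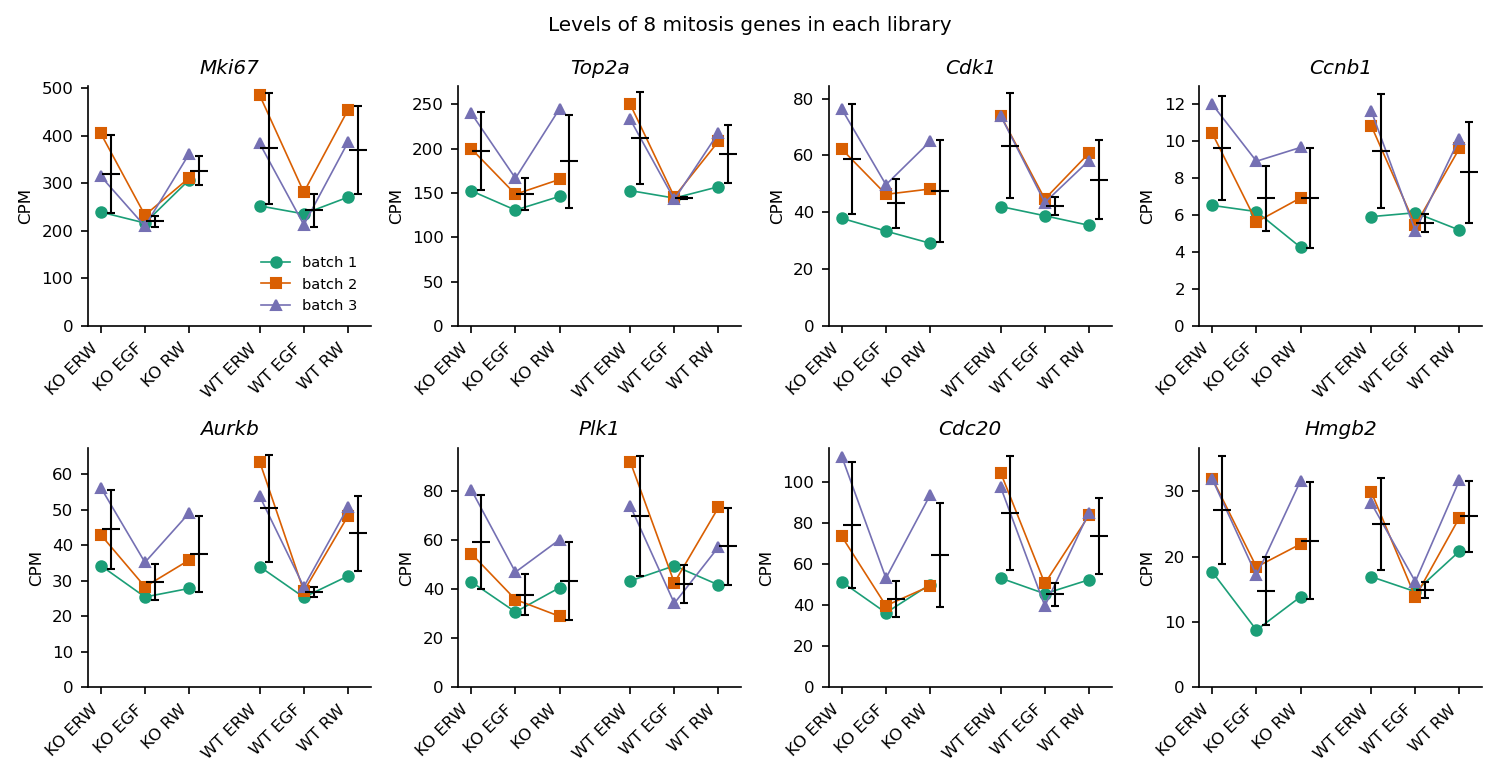
Levels of 8 of the genes in each of the 18 libraries (y axis, CPM, with its own scale in each panel from 0) by genotype and medium, with a symbol for each batch and black bars for the mean ± SD of 3 libraries. In batches 2 and 3 most lines dip at EGF medium, and the WT EGF values of Top2a lie between 143 and 146 CPM.

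All 4 genes of the chromosomal passenger complex, which corrects wrong attachments of chromosomes and then moves to the site of division, were higher in ERW than in EGF medium and lower in EGF than in RW medium. Aurkb is the kinase of the complex and had the smallest adjusted p of the 39 genes in ERW against EGF. Aurkb had 34.3, 42.9 and 56.2 CPM in KO ERW organoids, 25.5, 28.3 and 35.2 CPM in KO EGF organoids and 27.9, 35.8 and 49.1 CPM in KO RW organoids. In WT, the Aurkb values were 34.0, 63.5 and 53.8 CPM in ERW, 25.4, 27.1 and 28.3 CPM in EGF and 31.3, 48.2 and 50.7 CPM in RW medium. In WT all EGF values of Aurkb lay below all ERW and RW values. On the log2 scale the fitted difference of Aurkb was 0.72 ± 0.10 (SE) between ERW and EGF medium (adjusted p = 4.65e-05) and -0.49 ± 0.10 between EGF and RW medium (adjusted p = 0.00119). Cdca8, borealin, had the smallest adjusted p of the 39 in EGF against RW. Cdca8 had 32.8, 38.7 and 61.7 CPM in KO ERW organoids, 22.6, 25.8 and 38.97 CPM in KO EGF organoids and 36.8, 35.8 and 57.7 CPM in KO RW organoids. In WT, the Cdca8 values were 36.5, 61.3 and 59.9 CPM in ERW, 24.7, 32.3 and 32.6 CPM in EGF and 34.5, 49.8 and 54.6 CPM in RW medium. In KO the EGF replicate 3 value of Cdca8 lay above ERW replicates 1 and 2 and RW replicates 1 and 2, though within each batch EGF was lowest. For ERW against EGF, Cdca8 had a log2 fold change of 0.70 ± 0.10 (SE, adjusted p = 6.08e-05), and for EGF against RW one of -0.60 ± 0.10 (adjusted p = 0.000171). Birc5, survivin, is the subunit that binds marked histones. Birc5 had 34.2, 55.3 and 65.3 CPM in KO ERW organoids, 31.3, 30.2 and 40.1 CPM in KO EGF organoids and 33.5, 37.8 and 64.1 CPM in KO RW organoids. In WT, the Birc5 values were 42.5, 65.0 and 67.2 CPM in ERW, 35.4, 34.8 and 29.5 CPM in EGF and 33.0, 53.5 and 53.8 CPM in RW medium. In WT the Birc5 values of ERW and EGF did not overlap, and EGF replicate 1 lay above RW replicate 1. Birc5 thus gave fitted log2 fold changes of 0.66 ± 0.14 (SE) for ERW against EGF (adjusted p = 0.00273) and -0.41 ± 0.14 for EGF against RW (adjusted p = 0.0456). The scaffold Incenp changed by 0.48 ± 0.09 for ERW against EGF (adjusted p = 0.000519) and -0.35 ± 0.09 for EGF against RW (adjusted p = 0.00561), and Incenp averaged 107 ± 25.9 CPM in ERW, 74.7 ± 9.21 CPM in EGF and 96.7 ± 21.6 CPM in RW medium.

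All 10 genes of centromere, kinetochore and spindle checkpoint were higher in ERW than in EGF medium, and 7 were lower in EGF than in RW, the exceptions being Bub1, Nuf2 and Mad2l1. Cenpa is the histone that marks the centromere. Cenpa had 24.2, 37.0 and 50.2 CPM in KO ERW organoids, 19.8, 28.0 and 28.2 CPM in KO EGF organoids and 30.4, 33.4 and 46.1 CPM in KO RW organoids. In WT, the Cenpa values were 26.7, 50.5 and 47.9 CPM in ERW, 24.4, 28.2 and 24.2 CPM in EGF and 30.8, 37.1 and 43.3 CPM in RW medium. Over both genotypes all 6 EGF values of Cenpa, at most 28.2 CPM, lay below all 6 RW values, at least 30.4 CPM. Of all genes, 3.46% were separated in this way. The log2 fold change of Cenpa was 0.58 ± 0.11 (SE) for ERW against EGF (adjusted p = 0.000882) and -0.52 ± 0.11 for EGF against RW (adjusted p = 0.00201). Ndc80 is the kinetochore protein that grips the spindle fibre. Ndc80 had 12.8, 18.4 and 22.9 CPM in KO ERW organoids, 7.83, 16.3 and 14.7 CPM in KO EGF organoids and 12.3, 17.8 and 26.8 CPM in KO RW organoids. In WT, the Ndc80 values were 12.7, 24.2 and 23.5 CPM in ERW, 11.97, 11.2 and 11.4 CPM in EGF and 13.0, 23.8 and 23.7 CPM in RW medium. WT EGF libraries, between 11.2 and 11.97 CPM, were the tightest group for Ndc80 and lay below all WT ERW and RW libraries. On the log2 scale the fitted difference of Ndc80 was 0.61 ± 0.14 (SE) between ERW and EGF medium (adjusted p = 0.00346) and -0.63 ± 0.14 between EGF and RW medium (adjusted p = 0.00233). Bub1 is a kinase of the spindle checkpoint. Bub1 had 13.4, 17.4 and 26.8 CPM in KO ERW organoids, 9.23, 15.2 and 15.8 CPM in KO EGF organoids and 13.2, 11.8 and 24.8 CPM in KO RW organoids. In WT, the Bub1 values were 17.1, 28.3 and 22.7 CPM in ERW, 14.2, 14.6 and 14.9 CPM in EGF and 15.1, 18.6 and 24.2 CPM in RW medium. In WT the Bub1 values of EGF medium were below those of both other media, whereas in KO replicate 2 the EGF value lay above the RW value. For ERW against EGF, Bub1 had a log2 fold change of 0.56 ± 0.14 (SE, adjusted p = 0.00757), and for EGF against RW one of -0.33 ± 0.14 (adjusted p = 0.111).

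Ttk, the kinase that starts the checkpoint signal, was the 1 gene whose 6 ERW values, between 10.2 and 17.9 CPM, lay above its 6 EGF values, between 7.62 and 9.62 CPM. Its log2 fold changes were 0.68 ± 0.14 for ERW against EGF (adjusted p = 0.00163) and -0.48 ± 0.14 for EGF against RW (adjusted p = 0.0189). Cenpe, a motor that brings chromosomes to the spindle equator, changed by 0.53 ± 0.10 for ERW against EGF (adjusted p = 0.000969) and -0.50 ± 0.10 for EGF against RW (adjusted p = 0.00121), and Cenpe averaged 52.6 ± 11.9 CPM in ERW, 36.2 ± 5.41 CPM in EGF and 51.5 ± 11.1 CPM in RW medium. Cenpf, a large kinetochore protein, did so by 0.50 ± 0.11 for ERW against EGF (adjusted p = 0.00265) and -0.47 ± 0.11 for EGF against RW (adjusted p = 0.00380), and its EGF libraries lay below the ERW and RW libraries in each genotype. The 3 partners of Ndc80 gave log2 fold changes of 0.46 ± 0.12 for ERW against EGF (adjusted p = 0.00991) and -0.33 ± 0.12 for EGF against RW (adjusted p = 0.0619) in Nuf2, 0.68 ± 0.16 for ERW against EGF (adjusted p = 0.00391) and -0.55 ± 0.16 for EGF against RW (adjusted p = 0.0156) in Spc24 and 0.36 ± 0.12 for ERW against EGF (adjusted p = 0.0358) and -0.38 ± 0.12 for EGF against RW (adjusted p = 0.0312) in Spc25. Mad2l1, the checkpoint protein that holds Cdc20, had the smallest fold change of the group in ERW against EGF, with 0.33 ± 0.11 for ERW against EGF (adjusted p = 0.0340) and -0.21 ± 0.11 for EGF against RW (adjusted p = 0.197).

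All 5 spindle motors and microtubule factors were higher in ERW than in EGF medium, and 4 were lower in EGF than in RW. Kif11 is the motor that pushes the spindle poles apart. Kif11 had 49.2, 80.0 and 84.0 CPM in KO ERW organoids, 42.9, 51.6 and 58.2 CPM in KO EGF organoids and 52.9, 60.5 and 83.6 CPM in KO RW organoids. In WT, the Kif11 values were 53.4, 112 and 91.1 CPM in ERW, 57.6, 51.1 and 48.9 CPM in EGF and 55.0, 84.6 and 86.8 CPM in RW medium. In WT replicate 1 Kif11 was highest in EGF medium, and in replicates 2 and 3 it was lowest there. Kif11 thus gave fitted log2 fold changes of 0.55 ± 0.14 (SE) for ERW against EGF (adjusted p = 0.00871) and -0.41 ± 0.14 for EGF against RW (adjusted p = 0.0393). Hmmr, a protein of spindle assembly, had the largest difference of the group, and Hmmr averaged 32.3 ± 8.03 CPM in ERW, 19.3 ± 3.04 CPM in EGF and 27.4 ± 7.17 CPM in RW medium (SD, n = 6 each). The log2 fold changes of Hmmr were 0.72 ± 0.12 for ERW against EGF (adjusted p = 0.000331) and -0.49 ± 0.12 for EGF against RW (adjusted p = 0.00651). Tpx2, which activates Aurka on the spindle, changed by 0.53 ± 0.12 for ERW against EGF (adjusted p = 0.00564) and -0.48 ± 0.12 for EGF against RW (adjusted p = 0.0101), and Kif4, a motor on chromosome arms, by 0.57 ± 0.12 for ERW against EGF (adjusted p = 0.00223) and -0.49 ± 0.12 for EGF against RW (adjusted p = 0.00609). Kif2c, which shortens spindle fibres, gave 0.55 ± 0.15 for ERW against EGF (adjusted p = 0.0114) and -0.25 ± 0.15 for EGF against RW (adjusted p = 0.259), so that the second comparison carried no call.

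Of the 6 genes of the central spindle and cytokinesis, 5 were higher in ERW than in EGF medium and 4 lower in EGF than in RW. Kif20a is a motor that carries the passenger complex to the central spindle. Kif20a had 49.8, 84.7 and 95.3 CPM in KO ERW organoids, 42.0, 50.4 and 67.9 CPM in KO EGF organoids and 53.4, 62.2 and 95.3 CPM in KO RW organoids. In WT, the Kif20a values were 55.9, 109 and 92.1 CPM in ERW, 54.5, 64.8 and 52.4 CPM in EGF and 54.3, 88.3 and 81.7 CPM in RW medium. Within WT batch 1 the 3 Kif20a values differed by less than 2 CPM, whereas in batches 2 and 3 EGF was lowest. The log2 fold change of Kif20a was 0.51 ± 0.13 (SE) for ERW against EGF (adjusted p = 0.00812) and -0.36 ± 0.13 for EGF against RW (adjusted p = 0.0491). Racgap1, a subunit of the complex that organises the cleavage site, had the largest fold change of the group, with 0.59 ± 0.11 for ERW against EGF (adjusted p = 0.000888) and -0.50 ± 0.11 for EGF against RW (adjusted p = 0.00276). Ect2, which switches on RhoA there, followed with 0.59 ± 0.11 for ERW against EGF (adjusted p = 0.000827) and -0.42 ± 0.11 for EGF against RW (adjusted p = 0.00944). Kif23, the motor partner of Racgap1, gave 0.39 ± 0.14 for ERW against EGF (adjusted p = 0.0470) and -0.31 ± 0.14 for EGF against RW (adjusted p = 0.119), and Prc1, which bundles spindle fibres, 0.41 ± 0.14 for ERW against EGF (adjusted p = 0.0491) and -0.49 ± 0.14 for EGF against RW (adjusted p = 0.0226). Anln moved least of the 39 genes between ERW and EGF. Anln averaged 74.3 ± 17.6 CPM in ERW, 65.5 ± 8.81 CPM in EGF and 75.3 ± 17.9 CPM in RW medium, with log2 fold changes of 0.15 ± 0.09 for ERW against EGF (adjusted p = 0.220) and -0.17 ± 0.09 for EGF against RW (adjusted p = 0.178).

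All 3 cofactors and substrates of the anaphase-promoting complex passed in both comparisons. Cdc20 activates the complex at the start of anaphase and had the largest fold change of the 39 genes in ERW against EGF, 1.78-fold. Cdc20 had 51.5, 73.6 and 112 CPM in KO ERW organoids, 36.4, 39.9 and 53.3 CPM in KO EGF organoids and 50.2, 49.5 and 93.8 CPM in KO RW organoids. In WT, the Cdc20 values were 53.3, 105 and 97.6 CPM in ERW, 45.7, 50.7 and 39.7 CPM in EGF and 52.5, 83.8 and 85.2 CPM in RW medium. In WT the Cdc20 values of EGF medium, at most 50.7 CPM, lay below those of both other media, and in KO EGF was lowest within each batch. On the log2 scale the fitted difference of Cdc20 was 0.83 ± 0.17 (SE) between ERW and EGF medium (adjusted p = 0.00241) and -0.60 ± 0.17 between EGF and RW medium (adjusted p = 0.0174). Ube2c is the enzyme that attaches ubiquitin for the complex. Ube2c had 48.1, 57.5 and 87.8 CPM in KO ERW organoids, 34.2, 46.2 and 54.8 CPM in KO EGF organoids and 42.4, 49.1 and 77.1 CPM in KO RW organoids. In WT, the Ube2c values were 47.2, 81.2 and 82.6 CPM in ERW, 41.9, 42.8 and 43.7 CPM in EGF and 45.05, 68.7 and 67.5 CPM in RW medium. WT EGF values of Ube2c differed by less than 2 CPM and lay below all WT ERW and RW values. For ERW against EGF, Ube2c had a log2 fold change of 0.58 ± 0.10 (SE, adjusted p = 0.000631), and for EGF against RW one of -0.38 ± 0.10 (adjusted p = 0.0124). Cdca3, a trigger of entry that the complex degrades, changed by 0.73 ± 0.12 for ERW against EGF (adjusted p = 0.000403) and -0.57 ± 0.12 for EGF against RW (adjusted p = 0.00245).

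The 4 genes of chromatin, chromosome structure and transcription all passed in both comparisons. Mki67 encodes Ki-67, which coats mitotic chromosomes and marks cycling cells. Mki67 had 239.7, 405 and 315 CPM in KO ERW organoids, 217, 233 and 209.9 CPM in KO EGF organoids and 307, 312 and 362 CPM in KO RW organoids. In WT, the Mki67 values were 253, 485 and 384 CPM in ERW, 236, 281 and 213 CPM in EGF and 271, 454 and 387 CPM in RW medium. In KO every EGF value of Mki67 was below every ERW and RW value, and in WT EGF was lowest within each batch. Mki67 thus gave fitted log2 fold changes of 0.55 ± 0.11 (SE) for ERW against EGF (adjusted p = 0.00287) and -0.58 ± 0.11 for EGF against RW (adjusted p = 0.00173). Top2a untangles sister chromosomes. Top2a had 152, 199.7 and 239.6 CPM in KO ERW organoids, 131, 148 and 167 CPM in KO EGF organoids and 146, 165 and 245 CPM in KO RW organoids. In WT, the Top2a values were 153, 249.9 and 233 CPM in ERW, 144, 146 and 143 CPM in EGF and 157, 208 and 218 CPM in RW medium. WT EGF values of Top2a, from 143 to 146 CPM, lay below all WT ERW and RW values. The log2 fold change of Top2a was 0.46 ± 0.09 (SE) for ERW against EGF (adjusted p = 0.00143) and -0.35 ± 0.09 for EGF against RW (adjusted p = 0.00842). Hmgb2, a DNA-bending chromatin protein, had the largest fold change of the 39 genes in EGF against RW, 1.61-fold lower. Hmgb2 had 17.6, 31.9 and 31.8 CPM in KO ERW organoids, 8.77, 18.4 and 17.1 CPM in KO EGF organoids and 13.9, 21.9 and 31.6 CPM in KO RW organoids. In WT, the Hmgb2 values were 16.9, 29.9 and 28.2 CPM in ERW, 14.6, 13.8 and 16.2 CPM in EGF and 20.8, 26.0 and 31.7 CPM in RW medium. The lowest Hmgb2 value of all libraries was that of KO EGF replicate 1, and in WT the EGF values lay below those of both other media. On the log2 scale the fitted difference of Hmgb2 was 0.79 ± 0.13 (SE) between ERW and EGF medium (adjusted p = 0.000210) and -0.69 ± 0.13 between EGF and RW medium (adjusted p = 0.000552). Foxm1 is the transcription factor that drives many of the other 38 genes. Foxm1 had 51.1, 86.1 and 91.0 CPM in KO ERW organoids, 36.4, 57.7 and 64.7 CPM in KO EGF organoids and 45.1, 65.6 and 98.0 CPM in KO RW organoids. In WT, the Foxm1 values were 48.4, 97.5 and 89.3 CPM in ERW, 44.6, 60.4 and 48.3 CPM in EGF and 53.5, 77.2 and 81.5 CPM in RW medium. Within each batch of both genotypes Foxm1 was lowest in EGF medium, though the groups overlapped. For ERW against EGF, Foxm1 had a log2 fold change of 0.54 ± 0.10 (SE, adjusted p = 0.00103), and for EGF against RW one of -0.41 ± 0.10 (adjusted p = 0.00691).

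Levels also differed between batches. Over the 6 libraries of a batch the geometric mean of the 39 genes was 43.9 ± 11.8 CPM in batch 2 and 47.4 ± 11.0 CPM in batch 3, against 31.8 ± 3.22 CPM in batch 1 (SD, n = 6 each). The test of batch differences called 34 of 39 genes. As averages over the 6 groups, all had higher fitted levels in batches 2 and 3 than in batch 1. The median log2 fold changes over all 39 were 0.44 and 0.57. The WT EGF libraries departed from this order, with geometric means of 31.9, 34.0 and 30.2 CPM in batches 1, 2 and 3. Of all genes tested, 53.4% differed between batches. The 5 without a call were Aurka, Kif2c, Prc1, Plk1 and Cenpf. Cdk1 had the smallest adjusted p (3.00e-05), with 56.0 ± 11.6 CPM in batch 2 and 61.1 ± 13.1 CPM in batch 3, against 36.1 ± 4.52 CPM in batch 1. Cenpf, at the other end, had 69.1 ± 19.4 CPM in batch 2 and 65.5 ± 15.3 CPM in batch 3, against 60.7 ± 6.87 CPM in batch 1 (adjusted p = 0.461). Without batch 1, 2 genes were called between the other two batches, while leaving out any 1 library left 33 to 35 calls. What the batches are beyond their number is not given in the sources used here.

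In batch 1 of WT the levels in the 3 media lay closer together than in batches 2 and 3. In batch 1 of KO the EGF library stood at 25.5 CPM, below ERW at 32.9 CPM and RW at 32.3 CPM. The KO difference between EGF and RW was larger in batch 1 than in batch 2. The geometric mean over both genotypes was 33.7, 54.6 and 55.6 CPM in ERW medium in batches 1, 2 and 3, against 28.7, 32.7 and 33.6 CPM in EGF medium, and it was 33.0, 44.3 and 52.9 CPM in RW medium. The median log2 difference between ERW and EGF over the 39 genes was 0.36, 0.58 and 0.63 in batches 1, 2 and 3 of KO and 0.12, 0.84 and 0.86 in those of WT. For EGF against RW it was -0.37, -0.25 and -0.57 in KO and -0.10, -0.59 and -0.78 in WT. ERW exceeded EGF in all 3 batches for 38 of 39 genes in KO and 30 in WT, and EGF was below RW in all 3 batches for 31 genes in KO and 27 in WT. For ERW against RW the medians were 0.04, 0.38 and 0.06 in KO and 0.04, 0.24 and 0.09 in WT. A test of medium-by-batch terms, added after these values were seen, called 0 of 39 genes by edgeR, against 0.673% of all genes, and no other tool was run for it. At an unadjusted p under 0.05 it gave 9 of 39, against 10.7% of all genes. In that fit, over both genotypes, the average of batches 2 and 3 was also set against batch 1, a grouping chosen after these values were seen. These contrasts therefore describe the values and are no separate test, and the 39 genes share the same libraries. Averaged over batches 2 and 3, the ERW-to-EGF difference was larger than in batch 1 for all 39 genes, by a median of 0.48 (log2 scale). Of the 39, 23 had an unadjusted p under 0.05, against 9.86% of all genes. The smallest adjusted p was that of Mki67, 0.0863, with a difference of 0.63 ± 0.15 (SE). The RW-to-EGF difference averaged over batches 2 and 3 was also larger than in batch 1 in all 39 genes, by a median of 0.35. For it, 11 had an unadjusted p under 0.05, against 8.17% of all genes, with a smallest adjusted p of 0.358. The average does not show that batches 2 and 3 each exceeded batch 1. In KO the median for EGF against RW was -0.37 in batch 1 and -0.25 in batch 2.

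**Figure D4:**
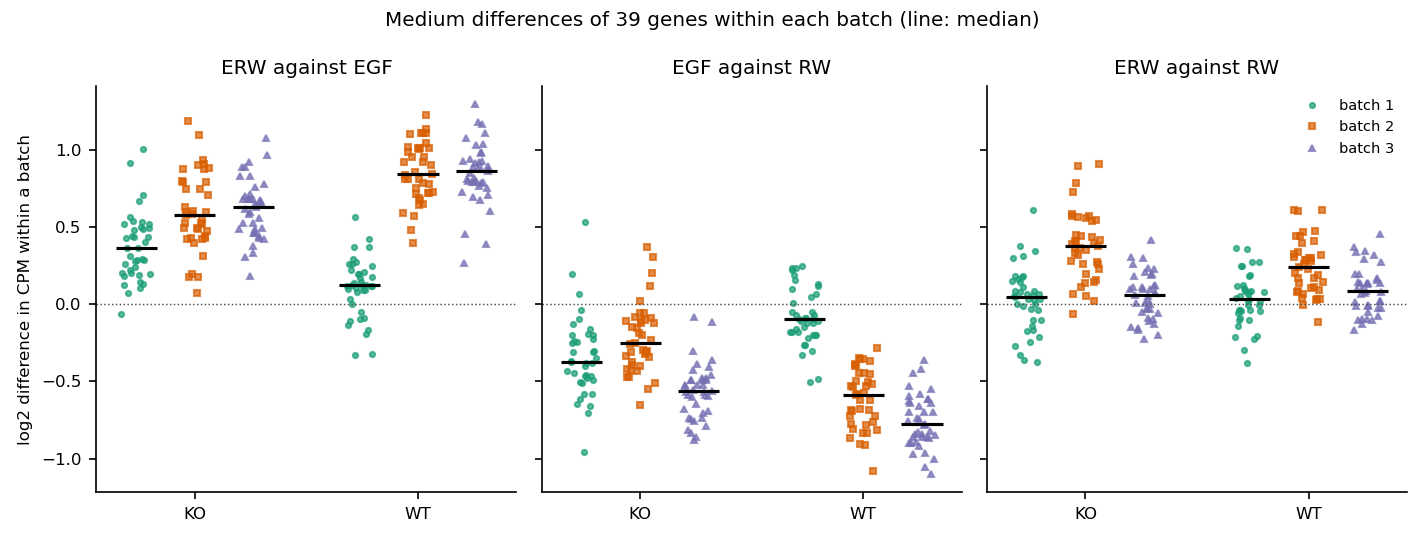
Log2 difference in CPM of each of the 39 genes between media within each batch and genotype (y axis), with a point for each gene and a line at the median. In ERW against EGF medium, the medians in KO are 0.36, 0.58 and 0.63 in batches 1, 2 and 3, against 0.12, 0.84 and 0.86 in WT.

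No gene of the 39 passed the test between KO and WT organoids, in any medium or over the media. In ERW medium edgeR called 0, against 0.0819% of all genes called (median log2 fold change -0.14, 0 with an unadjusted p under 0.05). In EGF medium it called 0, against 0.0702% of all genes called (median -0.05, 0 with such a p). In RW medium it called 0, against 0.0819% (median -0.12, 0 with such a p). DESeq2 called 0 in each medium as well, and the authors' deposited table also held 0 calls. Over the 3 media 0 were called by either tool, against 0.339% of all genes. The geometric mean was then 39.5 ± 11.1 CPM in KO and 42.6 ± 11.97 CPM in WT (SD, n = 9 each), and 37 of 39 fitted values were below 0, with a median of -0.09. Without batch 2 that median was 0.02, with 23 of 39 values above 0. Within a medium the sign of the median also changed, to 0.02 in ERW without WT replicate 2, 0.15 in EGF without WT replicate 1 and 0.01 in RW without KO replicate 2. Cenpf and Hmmr had an unadjusted p under 0.05, a threshold that some of 39 genes can pass without a difference between genotypes. Cenpf stood at 59.9 ± 11.6 CPM in KO and 70.3 ± 15.6 CPM in WT (log2 fold change -0.22 ± 0.09, adjusted p = 0.379), and Hmmr at 24.3 ± 8.25 CPM in KO and 28.4 ± 8.13 CPM in WT (-0.24 ± 0.10, adjusted p = 0.401). The 95% intervals show what size of difference the data leave room for. Over the media the interval of Mki67 ran from -0.37 to 0.03, that of Cdk1 from -0.25 to 0.08, that of Top2a from -0.21 to 0.10, and the intervals of all 39 genes lay between -0.67 and 0.30.

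The direction of the KO-to-WT difference changed with the batch. In ERW medium the median log2 difference over the 39 genes was -0.07, -0.40 and 0.06 in batches 1, 2 and 3, in EGF medium -0.29, -0.07 and 0.32, and in RW medium -0.05, -0.48 and 0.12. In batch 3 KO was higher in 31 of 39 genes in ERW, 37 in EGF and 30 in RW medium, and in batch 2 it was lower in 37, 25 and 39. KO was above WT in all 3 batches for 2 genes in ERW, 2 in EGF and 0 in RW medium, and below WT in all 3 for 6, 2 and 7 genes, so that most genes lay on both sides of 0.

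**Figure D5:**
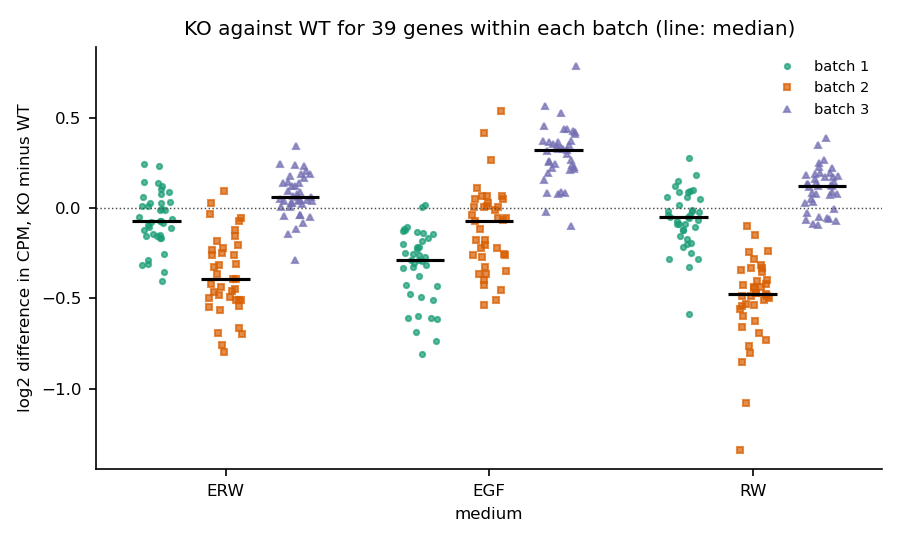
Log2 difference in CPM, KO minus WT, of each of the 39 genes within each batch and medium (y axis), with a point for each gene and a line at the median. In each medium the median of batch 3 is above 0 (0.06, 0.32 and 0.12 in ERW, EGF and RW) and that of batch 2 is below 0 (-0.40, -0.07 and -0.48).

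Whether the medium acted differently in KO and WT was tested as an interaction. EdgeR called 0 of 39 genes for ERW against EGF, 0 for EGF against RW and 0 for ERW against RW, with 0 at an unadjusted p under 0.05 in each and 0 by DESeq2, and 0% of all genes were called. The number of calls was larger in WT than in KO, but no interaction passed the test. The median interaction was -0.08 on the log2 scale for ERW against EGF, 0.09 for EGF against RW and -0.01 for ERW against RW. Each median changed sign with single libraries left out. For ERW against EGF it was 0.07 and 0.06 without WT ERW replicate 2 and WT EGF replicate 3, and -0.28 without WT EGF replicate 1. For EGF against RW it was -0.08, -0.06 and -0.02 without WT EGF replicate 3, KO RW replicate 2 and WT RW replicate 2, and 0.32 without WT EGF replicate 1. For ERW against RW it lay between -0.13 without KO RW replicate 2 and 0.15 without KO RW replicate 3 or WT ERW replicate 2. The widest limits of the 95% intervals over the 39 genes were -0.97 and 0.97 for ERW against EGF. For Aurkb, which had the smallest p in that test, the interaction was -0.30 ± 0.20 (SE), with an interval from -0.71 to 0.12.

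Other genes of mitosis were compared as a list outside the 39. Of 83 tested, 59 were higher and 0 lower in ERW than in EGF medium (median log2 fold change 0.51), and 24 were not called. Of all genes, 13.4% were higher in that comparison. In EGF against RW medium 38 were lower, against 12.5% of all genes, and 0 higher (median -0.37), and of the 83 fitted values 4 were above 0. In ERW against RW 5 were higher, Cks1b, Rad21, Sgo2a, Ncapd2 and Hjurp, and 0 lower. Of all genes, 11.0% were higher there, a share that these 5 of 83 did not exceed. The smallest adjusted p in ERW against EGF was that of Lmnb1, a protein of the nuclear lamina, with 157.6 ± 29.6 CPM in ERW and 103 ± 16.0 CPM in EGF medium (SD, n = 6 each). The condensin subunit Smc4 (log2 fold change 0.47 ± 0.07, adjusted p = 5.81e-05), the tubulin Tubb4b (0.43 ± 0.07, adjusted p = 0.000230) and the checkpoint kinase Bub1b (0.76 ± 0.12, adjusted p = 0.000270) followed. In EGF against RW, Smc4 (-0.43 ± 0.07), Ckap2l (-0.68 ± 0.11), Lmnb1 (-0.45 ± 0.08) and Melk (-0.72 ± 0.12) had the smallest p.

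Most genes of DNA replication and S phase were also higher in ERW than in EGF medium. Of 47 tested, 38 were higher and 0 lower in ERW than in EGF medium (median 0.46), 23 lower and 0 higher in EGF than in RW medium (median -0.30), and 3, Tk1, Rrm2 and Ccne1, were higher in ERW than in RW medium. The shares of all genes called in these directions were 13.4%, 12.5% and 11.0%, and the 3 of 47 did not exceed the last. Mcm6, a subunit of the replicative helicase, had the smallest p, at 193.9 CPM in ERW, 126.5 CPM in EGF and 194.7 CPM in RW medium on average, with log2 fold changes of 0.60 ± 0.08 for ERW against EGF and -0.61 ± 0.08 for EGF against RW. Between batches 43 of the 47 S-phase genes (91.5%) and 51 of the 83 other mitosis genes (61.4%) were called. The 39 described here had 34 calls (87.2%), and of all genes 53.4% were called.

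Of 22 regulators of the mitotic programme (among them subunits of the DREAM and MuvB complexes, E2F factors and inhibitors of entry), 10 were higher, against 13.4% of all genes, and 0 lower in ERW than in EGF medium (median 0.24). The regulators higher in ERW included Uhrf1 (0.72 ± 0.10, adjusted p = 6.53e-05), E2f4 (0.33 ± 0.06), E2f8 (0.68 ± 0.12) and Fbxo5, an inhibitor of the anaphase-promoting complex (0.61 ± 0.12). In EGF against RW, 5 regulators were lower, against 12.5% of all genes, and 1, E2f1, was higher. E2f1, which drives genes of S-phase entry, averaged 50.7 ± 5.09 CPM in ERW, 54.9 ± 8.37 CPM in EGF and 41.2 ± 7.08 CPM in RW medium (SD, n = 6 each). It was thus lowest in RW medium, with log2 fold changes of 0.42 ± 0.07 for EGF against RW (adjusted p = 0.000236) and 0.31 ± 0.07 for ERW against RW (adjusted p = 0.00364). All 39 genes, by contrast, had their lowest fitted level over both genotypes in EGF medium. In KO alone, the authors' deposited log2 fold change of Ccnb1 was -0.039 for RW against EGF. Rbl2, a pocket protein of resting cells, was lower in both media with EGF than in RW medium, with log2 fold changes of -0.25 ± 0.06 for EGF (adjusted p = 0.00612) and -0.19 ± 0.06 for ERW (adjusted p = 0.0305).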

How the data were processed

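RNA from 18 libraries, 3 in each of 6 groups, was made from 100 ng of total RNA and read as single ends of 50 bases, per the labels. The authors deposited whole-number counts per gene, and per the submitters' processing notes STAR, DESeq2 and GRCm38 were used, with no version, annotation release or strand setting named. The second deposited table gave, per the file headers, gene symbols and the authors' log2 fold changes and adjusted p-values, from a model with a batch term. The 36 further per-sample columns of normalized and stabilized values were not used.

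Counts were scaled by TMM in edgeR 4.0.16 (R 4.3.3) and filtered with filterByExpr (minimum count 10, minimum total 15). CPM are counts scaled to the effective library size. One robust quasi-likelihood fit held all 18 libraries, with 6 group means and the batch as a block. Tests are two-sided F-tests with Benjamini-Hochberg adjustment over 17092 genes in each comparison, called below 0.05. At 3 libraries a group, exact permutation of 1 gene between groups, without regard to the batch, would give at best p = 0.1. Permutation within batches allows fewer arrangements, and its smallest p is larger. The scripts were checked on simulated data. The members, lists and comparisons were chosen with earlier results of these data known. The labels give the batch, and libraries of a batch deviated together from their group means (correlations 0.175 to 0.453 over 45 pairs, and -0.285 to -0.00488 between batches). With each group's own mean subtracted, positive correlations within batches bring negative ones between them, so the second range is no separate comparison. Per-library values were printed for 18 genes chosen by role and for the genes with the smallest p of a comparison. Other genes named are those with the smallest p of their list or an opposite direction. Promoters came from RefSeq on GRCm38.p6, and exon lengths from GENCODE on GRCm38. Alternatives were no block, size factors of DESeq2, no filter, only the groups compared, the Wald test of DESeq2 1.42.0 with the block, and leaving out each library and each batch.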

Additional observations from a re-analysis of the deposited data

How the results depend on the processing

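No called gene changed its direction under any alternative run, and the medians over the 39 genes kept their sign for ERW against EGF and EGF against RW in both genotypes. The medians of ERW against RW in WT, of all comparisons between KO and WT, and of the 3 interactions changed sign with some library or batch left out. The fit without the replicate block, that is without the pairing by batch, gave 0 in place of 18 (KO) and 26 (WT) for ERW against EGF, 0 in place of 6 (KO) and 17 (WT) for EGF against RW, 15 in place of 37, 5 in place of 29 and 0 in place of 1 over both genotypes for ERW against EGF, EGF against RW and ERW against RW. Its medians moved little, from 0.57 to 0.62 for ERW against EGF over both genotypes. Without the filter, 10 in place of 17 were called in WT for EGF against RW. With only the groups compared, 32 in place of 18 and 17 in place of 6 were called in KO for ERW against EGF and EGF against RW, and 2 in place of 0 in WT for ERW against RW. The Wald test of DESeq2 gave 14 in place of 6 in KO for EGF against RW. Leaving out a library or a batch gave 1 to 25 calls in KO and 2 to 34 in WT for ERW against EGF, 0 to 15 and 0 to 30 for EGF against RW, and 0 to 2 and 0 to 0 for ERW against RW. Over both genotypes the ranges were 20 to 39, 2 to 35 and 0 to 2, and 2 to 35 for the batches. All counts between genotypes and of interactions remained 0 in every alternative. Of 134 called values of single genes, 0 lost the call with DESeq2 size factors and 0 with its Wald test, 11 with only the groups compared, 25 without the filter and 114 without the block. Leaving out a library kept these calls in 1961 cases and lost them in 451, and leaving out a batch kept 192 and lost 210. The cause of these changes was not tested. All 39 genes passed the filter on low counts, and each group had 3 libraries; what limits the precision was not tested.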
